A study of Caenorhabditis elegans with 2 samples.

Results

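The cytosolic ribosomal protein genes of Caenorhabditis elegans were taken as the protein-coding genes whose symbol starts with rpl- or rps- followed by a digit in the Ensembl annotation of WBcel235. This rule gave 78 of the 19973 nuclear protein-coding genes, 47 for the large (rpl-) and 31 for the small (rps-) subunit. All 78 were described over a window that ran from 2000 bp upstream of the 5' end to the 3' end of the gene.

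The values come from a chromatin immunoprecipitation sequencing (ChIP-seq) experiment on the transcription factor UNC-3 in 1 group of 2 biological replicates. The worms were of strain RW12259, in which CRISPR insertion placed a TY1, EGFP and 3xFLAG tag on unc-3 (allele st12259), and the group holds no untagged or wild-type worms. The labels place this allele on chromosome II, and they name unc-3 as the antibody while the description names an antibody against GFP. Egg bleaching synchronised the worms, which were taken whole as late embryos at 2.5 hours from a point that the labels do not name, so chromatin of all their tissues entered each sample together and a share of cells cannot be told apart from a level per cell. Chromatin was sonicated to between 200 and 800 bp. UNC-3 belongs to the COE (Collier/Olf/EBF) family and is known for its role in cholinergic motor neurons. No library from unprecipitated chromatin was used here, so a peak is a place of enriched reads and does not by itself show that UNC-3 was bound.

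Ribosomal proteins assemble with ribosomal RNA in the nucleolus into the large and small subunits that carry out translation. Their genes are active in nearly all cells, are among the most strongly transcribed of the genome, and yield their proteins in matched amounts. In animals several of them carry small nucleolar RNAs (snoRNAs), which guide chemical modification of ribosomal RNA, inside their introns.

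Of the 19 summits described below, 11 held the letters TACGGT within 100 bp, and the DNA around 8 of the 19 is printed because the later results refer back to these letters. The first 6 sequences hold the word, including the 3 of highest signal that do, and the last 2 come from the summits of highest signal without it. Each runs 5' to 3' on the strand of the gene from 45 bp before to 45 bp after the summit, was read from the RefSeq FASTA of WBcel235, and has TACGGT in capitals.
rpl-3 (III:3867536-3867626, plus strand): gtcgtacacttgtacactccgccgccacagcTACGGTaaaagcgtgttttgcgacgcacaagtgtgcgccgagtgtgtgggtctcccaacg
rpl-15 (IV:654881-654971, minus strand): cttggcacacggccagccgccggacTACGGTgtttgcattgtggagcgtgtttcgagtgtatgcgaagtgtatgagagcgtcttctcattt
rpl-20 (IV:4750014-4750104, minus strand): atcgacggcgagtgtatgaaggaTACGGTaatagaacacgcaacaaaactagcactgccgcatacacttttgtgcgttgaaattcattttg
rps-1 (III:4475629-4475719, plus strand): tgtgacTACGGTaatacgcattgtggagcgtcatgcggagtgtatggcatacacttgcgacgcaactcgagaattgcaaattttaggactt
rps-23 (IV:12391242-12391332, minus strand): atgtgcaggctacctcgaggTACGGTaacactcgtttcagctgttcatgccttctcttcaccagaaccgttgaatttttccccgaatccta
rpl-16 (III:3505376-3505466, minus strand): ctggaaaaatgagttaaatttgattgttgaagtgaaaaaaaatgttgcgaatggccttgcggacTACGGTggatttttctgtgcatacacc
rpl-35 (III:7854648-7854738, plus strand): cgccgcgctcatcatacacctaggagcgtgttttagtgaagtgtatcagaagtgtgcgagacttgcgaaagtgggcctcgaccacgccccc
rps-28 (IV:1659207-1659297, plus strand): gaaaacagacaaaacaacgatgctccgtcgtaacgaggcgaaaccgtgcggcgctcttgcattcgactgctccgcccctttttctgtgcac

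Over all 11 copies the word stood 7 times on the strand of the gene, as in the 6 sequences printed, and 4 times on the other strand. The printed sequences thus do not show this mix. Strand here is that of the ribosomal protein gene, also at rpl-16, rpl-20 and rps-20, whose summits were nearest to another gene. The word was picked after the sequences had been examined, as the one of 2080 words of 6 letters (a word and its reverse complement counted as 1) whose share at ribosomal protein gene summits exceeded that at other summits by the widest margin. Its share at these summits is therefore given as a description.

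A summit of the deposited list named conservative, which holds 631 peaks of both replicates together, fell in the window of 18 of the 78 ribosomal protein genes (23.1%, exact Clopper-Pearson 95% interval 14.3 to 34.0). Over all 19973 protein-coding genes, 718 had such a summit, which is 3.59%. The share of ribosomal protein genes was larger although their windows were shorter, with a median of 2754 bp against 4027 bp over all protein-coding genes. In the longer ranked list of both replicates, which also keeps peaks of low rank, 70 of the 78 genes had a summit (89.7%, interval 80.8 to 95.5), where 64.6% of all protein-coding genes did. Ranked peaks were thus spread over most of the gene group.

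Each replicate alone gave fewer genes. The thresholded list of replicate 1 placed a summit in 8 of the 78 windows (10.3%, interval 4.53 to 19.2), where the share over all protein-coding genes was 2.06%. The thresholded list of replicate 2 placed one in 11 (14.1%, interval 7.26 to 23.8), also against 2.06%. Both replicates passed for 7 genes, replicate 1 alone for rpl-11.2, and replicate 2 alone for rpl-7, rpl-7A, rps-1 and rps-19. The remaining 6 genes with a conservative summit, rpl-5, rpl-11.1, rpl-14, rpl-16, rps-20 and rps-23, passed in neither replicate alone.

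Among the large subunit genes, the highest signal stood 273 bp upstream of rpl-3, whose protein lies near the peptidyl transferase centre in yeast ribosomes. The deposited signal, a peak strength with no stated unit, was 93.9 in replicate 1, 112 in replicate 2 and 200.4 in the list of both. This peak ranked 32nd of the 631. The signal of the list of both replicates is on a higher scale than that of either replicate, so these scales are not set against each other. The replicates' lists were made separately, with median signals over their ranked lists of 16 in replicate 1 and 14.1 in replicate 2, so which replicate is higher at a summit is a description of the deposited values only.

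The next large subunit genes were rpl-15, rpl-35 and rpl-20, all 3 encoding structural proteins of the large subunit. The summit 350 bp upstream of rpl-15 had 78.7 in replicate 1, 82.7 in replicate 2 and 157.7 in both. The summit 441 bp upstream of rpl-35 had 79.6 in replicate 1, 62.1 in replicate 2 and 145.4 in both. At rpl-20 it lay 281 bp upstream, with 79.2 in replicate 1, 58.2 in replicate 2 and 136.1 in both. These genes and rpl-3 were the only large subunit genes with a conservative signal above 100 in the list of both, and all 4 passed the threshold in each replicate alone.

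The other 7 large subunit genes with a conservative summit had signals between 58.5 and 95.4 in the list of both. At rpl-7A, which holds 2 snoRNA genes within it, the summit was 65 bp upstream, the closest of all, with 41.2 in replicate 1, 53.3 in replicate 2 and 95.4 in both. The paralogs rpl-11.1 and rpl-11.2, whose protein binds 5S ribosomal RNA with that of rpl-5, each had a conservative summit. For rpl-11.2 it lay 416 bp upstream with 43.7 in replicate 1, 35.9 in replicate 2 and 78.1 in both. For rpl-11.1 it lay 1815 bp upstream, in an intron of T22F3.2 and 145 bp upstream of that gene's nearest 5' end, with a tRNA gene 435 bp away. Its signal was 31.2 in replicate 1, 39.4 in replicate 2 and 74.4 in both. The paralogs thus had similar signals at different distances, and the summit of rpl-11.1 lay closer to another gene.

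The last 4 large subunit genes formed the low end. The summit of rpl-7 (302 bp upstream) had 28.1 in replicate 1, 39.5 in replicate 2 and 66.0 in both. That of rpl-5 (403 bp) had 29.8 in replicate 1, 30.4 in replicate 2 and 63.8 in both, and that of rpl-14 (322 bp) had 28.1 in replicate 1, 32.5 in replicate 2 and 61.5 in both. The summit counted for rpl-16 had 30.5 in replicate 1, 31.0 in replicate 2 and 58.5 in both, but it lay 1817 bp upstream of rpl-16 and 320 bp upstream of lias-1, the gene nearest to it. All 4 lay below the median signal of the conservative list, 81.5, in the list of both.

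Among the small subunit genes, rps-28, whose protein sits near the mRNA exit in eukaryotic ribosomes, had the highest signal. Its summit, 439 bp upstream, had 61.5 in replicate 1, 70.4 in replicate 2 and 133.8 in both. At rps-24 there were 2 conservative peaks, the only gene of the group with more than 1. The peak 326 bp upstream had 57.6 in replicate 1, 51.1 in replicate 2 and 102.2 in both, and the peak 687 bp upstream had 28.8 in replicate 1, 45.7 in replicate 2 and 71.1 in both. The nearer peak was the stronger in each replicate, and the farther one passed the threshold of replicate 2 alone.

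The DNA under these 2 rps-24 peaks differed in a short repeat, described after the sequences had been seen. Within 132 bp on each side of the summit, the farther peak held 5 copies of AAGGGGA on the strand of the gene and 0 of its reverse complement, TCCCCTT. The nearer peak held 0 copies of AAGGGGA and 5 of TCCCCTT. Of the 631 conservative windows, 17 held 3 or more copies on either strand.

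The next 4 small subunit genes lay close together in signal. At rps-20 the summit (253 bp upstream) had 46.9 in replicate 1, 48.1 in replicate 2 and 98.5 in both, and at rps-19 (294 bp) it had 43.7 in replicate 1, 53.5 in replicate 2 and 98.3 in both. RPS19, the human counterpart of rps-19, is known for its mutation in Diamond-Blackfan anaemia. At rps-1 (244 bp) the summit had 35.7 in replicate 1, 60.0 in replicate 2 and 94.3 in both. At rps-26 (426 bp), whose protein contacts mRNA in eukaryotic ribosomes, it had 42.7 in replicate 1, 47.3 in replicate 2 and 87.6 in both.

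The summit of rps-26 was 31 bp upstream of tmem-107 and 92 bp from a snoRNA gene, so it lay far closer to both than to rps-26 itself. The lowest small subunit value was that of rps-23, whose protein forms part of the decoding centre in eukaryotic ribosomes. Its summit, 234 bp upstream, had 29.1 in replicate 1, 36.6 in replicate 2 and 65.5 in both. Replicate 2 had the higher signal at 15 of the 19 summits and replicate 1 at 4, although over the whole thresholded lists the median was 56.2 in replicate 1 and 53.8 in replicate 2.

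**Figure D1:**
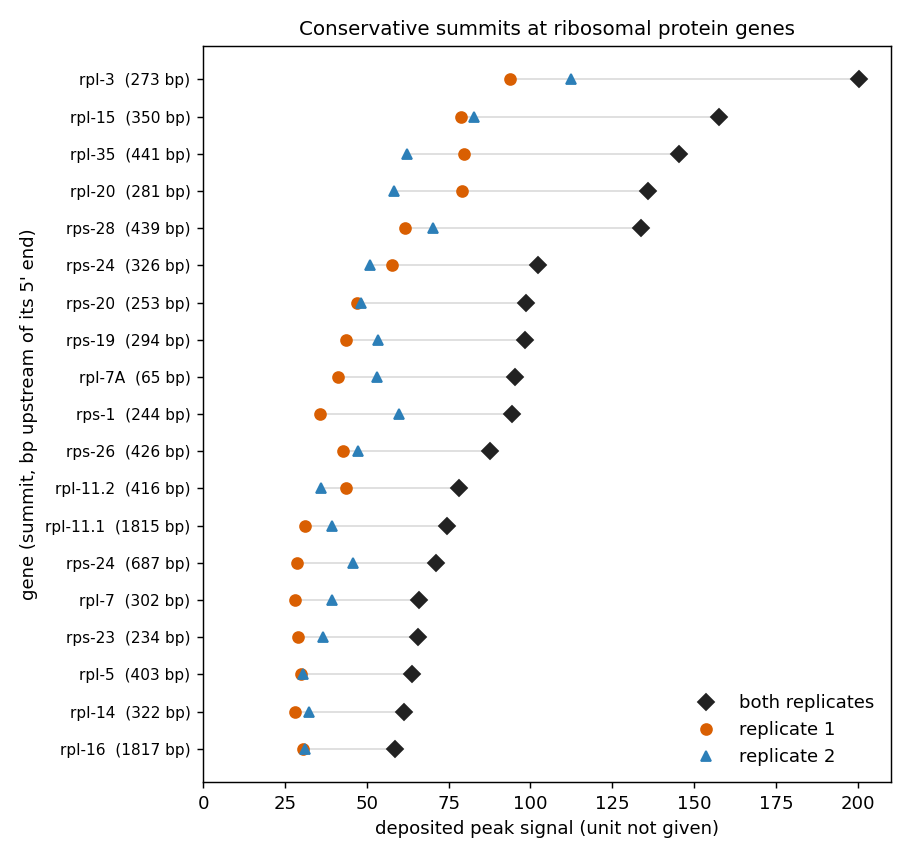
Deposited peak signal (x axis, unit not given) at the 19 conservative summits in windows of ribosomal protein genes (y axis, with the distance upstream of the gene's 5' end in bp), ordered by the signal of the list of both replicates. Diamonds are the list of both replicates, circles replicate 1 and triangles replicate 2. The list of both runs from 58.5 at rpl-16 to 200.4 at rpl-3, and triangles lie right of circles at 15 summits.

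Within the conservative list the 19 summits were not confined to its top. Of these, 11 lay above the median signal of the list, 81.5, and 8 at or below it. The median over the 18 genes, each with its highest summit, was 94.8, against 83.6 over all 718 protein-coding genes with a conservative summit. The lowest −log10 IDR (irreproducible discovery rate, smaller rates giving larger values) of the group was 2.10 at rpl-14, and the lowest of the whole list was 2.00.

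Large and small subunit genes had conservative summits at near equal shares. For the large subunit it was 11 of 47 genes (23.4%, interval 12.3 to 38.0), and for the small subunit 7 of 31 (22.6%, interval 9.59 to 41.1). Their median highest signal in the longer ranked list was 44.3 over 41 large subunit genes and 38.9 over 29 small subunit genes. The quartile ranges, 34.8 to 58.5 for the large and 27.7 to 65.5 for the small subunit, overlapped over most of their length, so the subunits were not told apart.

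Over both subunits the median highest ranked signal was 42.2, with quartiles of 30.4 and 60.7 (n = 70 genes), against 32.1 with quartiles of 26.6 and 39.2 over all protein-coding genes (n = 12902). When all ranked summits of a window were summed in place of taking the highest, the medians were 53.6 for the ribosomal protein genes and 51.6 for all protein-coding genes. Windows with any ranked summit held a mean of 1.97 summits for the ribosomal protein genes and 2.50 for all protein-coding genes. The medians thus differed for the strongest summit and were close for the summed signal. Ranked but no conservative summits were found at 52 of the genes, with highest signals of 19.6 at rps-6 to 83.0 at rps-12.

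**Figure D2:**
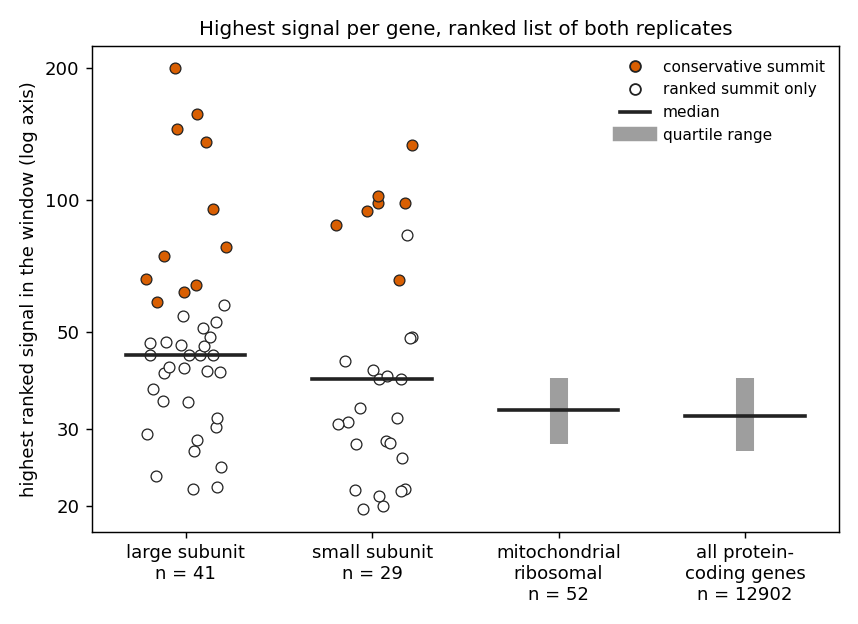
Highest signal in the window of each gene (y axis, log scale, unit not given) in the longer ranked list of both replicates, for large subunit, small subunit and mitochondrial ribosomal protein genes and all protein-coding genes with a ranked summit. Points are single genes, filled where the summit is also in the conservative list. Black lines are medians (44.3, 38.9, 33.2 and 32.1) and grey bars quartile ranges.

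The highest ranked signal among genes with no conservative summit was that of rps-12, a small subunit gene. It holds the snoRNA genes F54E7.10 and F54E7.11. Its summit, 149 bp upstream, had 63.2 in replicate 1, 22.1 in replicate 2 and 83.0 in both. The summit stood between rps-12 and ska-3, a gene on the opposite strand whose 5' end lies 293 bp upstream of that of rps-12. The signal in both was higher than at 8 of the 19 conservative summits, but the replicates were far apart and the −log10 IDR was 1.39. The lowest of the conservative list was 2.00. By this value the summit shared by rpl-36 and rps-14, with 1.54, came closer to that list.

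The next 4 in order all encode large subunit proteins. At rpl-43 the summit, 781 bp upstream, had 36.8 in replicate 1, 21.6 in replicate 2 and 57.4 in both, with a −log10 IDR of 1.38. It lay closer to Y48B6A.1, on the opposite strand, whose 5' end is 921 bp upstream of that of rpl-43. At rpl-12, whose protein lies at the base of the ribosomal stalk in yeast, the summit stood 74 bp upstream with 24.7 in replicate 1, 28.3 in replicate 2 and 54.4 in both (−log10 IDR 1.44). The summit of rpl-27 was the only one of these inside the gene, 200 bp downstream of the 5' end, with 32.2 in replicate 1, 21.6 in replicate 2 and 52.7 in both (1.37). That of rpl-33, 376 bp upstream, had 23.3 in replicate 1, 26.4 in replicate 2 and 50.9 in both (1.16). Replicate 1 was the higher at rpl-43 and rpl-27, and replicate 2 at rpl-12 and rpl-33.

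A total of 8 genes, rpl-10, rpl-25.1, rpl-26, rpl-28, rpl-29, rpl-37, rps-0 and rps-4, had no summit in the longer ranked list. All of these but rpl-37 had a summit in the ranked list of at least 1 replicate, the highest being 31.0 in replicate 1 at rpl-29. A large subunit gene, rpl-37, was the only one of the 78 with no summit in any deposited list.

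Replicate values could be set side by side at the highest ranked summit of 53 of the 70 genes, where each replicate's own ranked list had an overlapping peak. Over the 51 distinct summits the Pearson correlation of the log10 signals was 0.736 and Spearman's rho 0.676. These are descriptions over summits that share both libraries and that had to be found in both lists. The conservative summits among them had also been selected on agreement between the replicates. No replicate 1 peak overlapped the summit at 10 genes and no replicate 2 peak at 8.

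**Figure D3:**
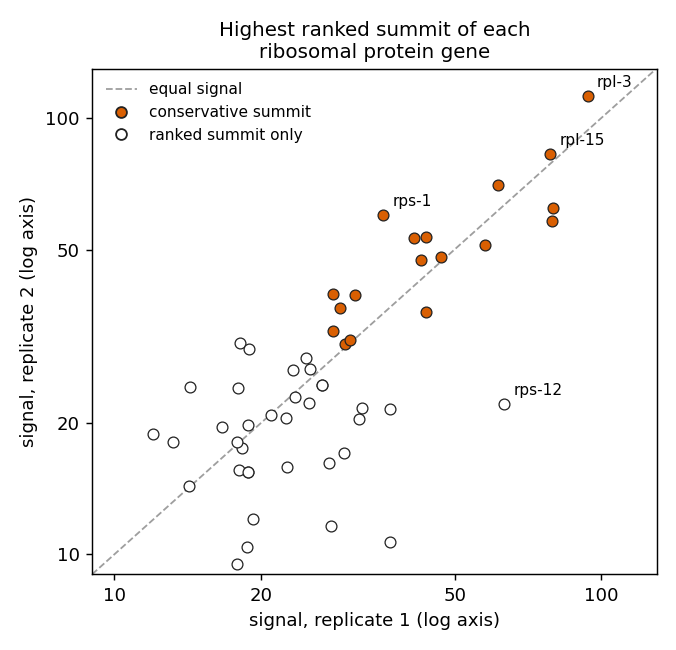
Signal in replicate 1 (x axis) and replicate 2 (y axis), both on log scales and with no unit given, at the highest ranked summit of the 53 ribosomal protein genes with a peak in both, filled where the summit is conservative. The dashed line marks equal signal. Conservative summits run along it up to rpl-3, with 93.9 in replicate 1 and 112 in replicate 2, while rps-12, with 63.2 and 22.1, lies well below it. All conservative peaks had a −log10 IDR of at least 2.00, a measure of agreement between replicates. Their nearness to the line was therefore partly set by their selection.

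Most of the conservative summits stood within 500 bp upstream of the genes, while the full range was 65 to 1817 bp. All 19 conservative summits lay upstream of the member's 5' end. Of the 761 pairs of a protein-coding gene and a conservative summit in its window, 75.4% were upstream. Among the 19, 18 stood between genes and 1 in an intron of another gene. This placement was not counted for the other conservative summits, so it does not set the group apart. The median distance of the 19 was 326 bp (quartiles 277 and 432.5 bp). Within 500 bp of the 5' end there were 16 of 19 (84.2%, interval 60.4 to 96.6), against 44.9% of the 761 pairs of a protein-coding gene and a conservative summit in its window. Between 200 and 450 bp upstream, a range set after the distances had been seen, there were 15 of 19 (78.9%), against 19.2% of the 761 pairs. Windows of ribosomal protein genes were shorter, with less room for summits inside the gene, and these shares were not corrected for that.

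In the longer ranked list, which includes the conservative summits on which the range was set, the highest ranked summit lay 200 to 450 bp upstream at 30 of 70 ribosomal protein genes (42.9%), against 8.56% of 12902 protein-coding genes. Taking only genes whose highest summit was upstream within 2000 bp, which leaves out summits inside long genes, the shares were 48.4% of 62 ribosomal protein genes (interval 35.5 to 61.4) and 15.9% of 6944 protein-coding genes. The 52 ribosomal protein genes with ranked but no conservative summits had 15 in this range, or 28.8%. In replicate 1 alone the share was 42.3%, against 8.22% of all protein-coding genes, and in replicate 2 it was 47.9%, against 8.49%. Both single-replicate shares include peaks at the conservative summits on which the range was set, so they are not an independent repeat. Worm mRNAs are often trans-spliced, so these are distances to the annotated end and not to a transcription start.

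**Figure D4:**
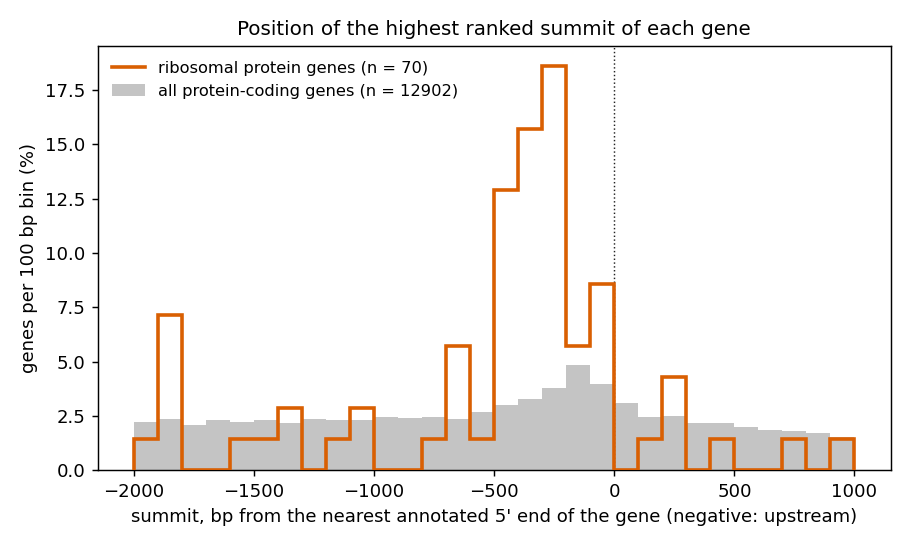
Position of the highest ranked summit of each gene relative to its nearest annotated 5' end (x axis, bp, negative upstream) as a share of genes per 100 bp (y axis, percent), for 70 ribosomal protein genes (orange line) and 12902 protein-coding genes (grey). In the bin from 300 to 200 bp upstream the shares are 18.6% and 3.78%. The plot leaves out 1 ribosomal protein gene and 3206 protein-coding genes with summits beyond its range.

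Many of these promoters are shared. Another protein-coding gene on the opposite strand had its 5' end within 1000 bp upstream of 47 of the 78 genes. The same share over all protein-coding genes is not given here, so this count does not set the group apart. Conservative summits fell in 11 of these 47 windows (23.4%, interval 12.3 to 38.0) and in 7 of the other 31 (22.6%, interval 9.59 to 41.1), so the shares did not separate. Of the 19 summits, 15 also lay in the window of another protein-coding gene, 13 were nearest to the 5' end of the ribosomal protein gene, and 6 were nearest to another gene's. Matching counts for the other conservative summits are not given here either.

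Those 6 summits were counted for rpl-11.1 (nearest T22F3.2), rpl-16 (lias-1), rpl-20 (Y17G9B.5), rps-19 (hsr-9), rps-20 (ekl-4) and rps-26 (tmem-107). At rpl-20 the summit was 281 bp from the ribosomal protein gene and 181 bp from Y17G9B.5. It was 294 bp from rps-19 and 151 bp from hsr-9, and 253 bp from rps-20 and 144 bp from ekl-4. The peak lists do not assign a summit to either gene of such a pair. Counting a summit only for the gene with the nearest 5' end left 12 of the 78 genes, against 2.24% of all protein-coding genes by the same count.

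Pairs of ribosomal protein genes that share an upstream region had summits only in the ranked list. The 5' ends of rpl-36 and rps-14 are 663 bp apart, and a single summit between them had 26.7 in replicate 1, 24.5 in replicate 2 and 48.7 in both, with a −log10 IDR of 1.54. Between rpl-39 and rps-30, 499 bp apart, the shared summit had 18.8 in replicate 1, 15.5 in replicate 2 and 31.7 in both. For rpl-24.1 and rps-10, 610 bp apart, it had no overlapping peak in replicate 1, 15.3 in replicate 2 and 21.8 in both. Such pairs count as 1 summit with 2 genes, so the genes are not independent of each other.

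Genes that host snoRNAs on their own strand numbered 13, and 4 of them, rpl-7, rpl-7A, rpl-15 and rps-23, had a conservative summit (30.8%, interval 9.09 to 61.4), against 14 of the 65 that host none (21.5%, interval 12.3 to 33.5). The intervals overlap over most of their length. Genes for tRNAs, snoRNAs or snRNAs stood within 500 bp of only 3 of the 19 summits, namely those of rpl-7A (a snoRNA gene inside it, 347 bp away), rpl-11.1 and rps-26, while 218 of all 631 conservative summits did. With summits near such genes left out, 15 of the 78 genes kept one, against 2.57% of all protein-coding genes.

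By chromosome, conservative summits fell in 6 of 17 ribosomal protein genes on IV (interval 14.2 to 61.7%), against 3.29% of all protein-coding genes there, and in 5 of 23 on I (interval 7.46 to 43.7%), against 4.55%. On III it was 4 of 18 (interval 6.41 to 47.6%), against 5.76%. On II it was 1 of 10 (interval 0.253 to 44.5%), against 3.68%, and on V 1 of 8 (interval 0.316 to 52.7%), against 2.22%. On X, where the annotation places unc-3 itself, 1 of 2 had a summit, that of rpl-11.2 (interval 1.26 to 98.7%), against 3.26%. These intervals overlap each other, so no chromosome stood apart.

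The further ribosome components and the assembly factors were too few to be told apart from the ribosomal protein genes or from the 3.59% over all protein-coding genes. Of 6 further ribosome components, 0 had a conservative summit (interval 0 to 45.9%) and 4 had a ranked one. These were the stalk proteins rla-0, rla-1 and rla-2, the ubiquitin fusions ubq-2 and ubl-1 and the ribosome-bound scaffold rack-1. Of 12 genes for nucleolar and ribosome assembly factors, 1 had a conservative summit (8.33%, interval 0.211 to 38.5) and 10 a ranked one. The gene was rbd-1, whose RNA-binding protein acts in ribosome assembly, with a summit 152 bp upstream and a signal of 60.2 in both. In this class fib-1, the methyltransferase fibrillarin that works with snoRNAs, had 42.9 in both, from a summit that also lies in the window of rps-16 and is its highest. The gene lpd-7 had 47.4, from a summit that it shares with rpl-9. Mitochondrial ribosomal protein genes (mrpl- and mrps-) had conservative summits at 4 of 70 (5.71%, interval 1.58 to 14). That interval takes in the 3.59% and ends just below the interval of the cytosolic ribosomal protein genes, 14.3 to 34.0%. In the thresholded lists of single replicates the 2 intervals overlapped. For the mitochondrial genes it was 0.893 to 12% in each replicate. For the cytosolic genes it was 4.53 to 19.2% in replicate 1 and 7.26 to 23.8% in replicate 2. The 2 classes were therefore not clearly separated. Their median highest ranked signal was 33.2 (n = 52), and 7.69% of these 52 had that summit 200 to 450 bp upstream.

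The sequence around the 19 summits was compared with the other 612 conservative summits for 8 motifs, searched on both strands within 100 bp of the summit. The COE motif, spelled TCCCNNGGGA and known as the recognition sequence of the UNC-3 family, was at 0 of 19 summits, which with an exact interval allows up to 17.6%, against 2.45% of the others. The relaxed COE form was likewise at 0 of 19, against 3.43%. The numbers do not separate from the low share at the other summits. GAGAGA was at 3 summits (15.8%, against 29.6% of the others), CCGCCC at 4 (21.1%, against 13.6%), CAGCTG and CACGTG at 1 each (5.26%, against 5.07% and 3.10%), and TGATAA and TAATTA at 0 (against 7.84% and 4.25%). Each of the 8 motifs was thus at 4 or fewer of the 19 summits. The median GC content was 43.3% at these summits, 45.8% at the other conservative summits and 39.3% over the ranked list.

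The word TACGGT, shown in capitals in the sequences above, was at 11 of 19 summits (57.9%, interval 33.5 to 79.7), against 4.74% of the other 612 conservative and 5.74% of the 30297 ranked summits. Its 11 copies stood 11.5 to 71.5 bp from the summit (median 22.5 bp). The summits that held it were those of rpl-3, rpl-5, rpl-7, rpl-11.2, rpl-14, rpl-15, rpl-16, rpl-20, rps-1, rps-20 and rps-23. The summits of rpl-35, rps-28 and rps-24, which are of high signal, did not hold it.

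The word also stood in the 500 bp upstream of many ribosomal protein genes with no conservative summit. It was in 11 of the 18 genes with a conservative summit (61.1%), in 25 of the 60 with none (41.7%, interval 29.1 to 55.1), and in 36 of all 78 (46.2%), against 15.7% of mitochondrial ribosomal protein genes and 13.9% of all protein-coding genes. The sequences of the 60 genes with none had no part in the choice of the word. By subunit it was in 25 of 47 large (53.2%, interval 38.1 to 67.9) and 11 of 31 small subunit genes (35.5%, interval 19.2 to 54.6). At the 49 distinct highest ranked summits of ribosomal protein genes without a conservative one, it was within 100 bp of 10 (20.4%, interval 10.2 to 34.3), against 5.86% over all protein-coding genes without one.

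Median signals were close with and without the word upstream. The median highest ranked signal was 41.4 over the 33 ribosomal protein genes with both the word upstream and a ranked summit, and 42.9 over the 37 without the word. Conservative summits were found at 11 of the 36 ribosomal protein genes with the word upstream (30.6%, interval 16.3 to 48.1). Without it they were found at 7 of 42 (16.7%, interval 6.97 to 31.4). These intervals overlap, and the word was picked at conservative summits of the same genes. Over the other protein-coding genes, a conservative summit was found at 4.29% of the 2749 with the word upstream and 3.39% of the 17146 without. A match of these letters is a description and not a binding site.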

How the data were processed

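Peak lists of 2 biological replicates of UNC-3 ChIP-seq, the only group, were used. Per the labels they are on the assembly ce11, whose chromosomes matched WBcel235, and 0 peaks lay beyond a chromosome end. The authors deposited a signal value, a summit and, in ranked lists, an irreproducible discovery rate on a −log10 scale for each peak. No source used here defines the signal or names the aligner and peak caller. All 631 conservative peaks were in the longer ranked list with the same start, end and signal. The lists hold no read counts, so depth is unknown.

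Genes came from Ensembl release 115. Replicate values at a summit are those of peaks of each replicate's ranked list that overlapped it by at least 1 bp. Shares carry exact Clopper-Pearson 95% intervals, which cover counting error only, and genes that share a summit are not independent. No p-values were computed. The window and distance functions were tested on simulated data. Words of 6 letters were counted within 100 bp of summits and 500 bp upstream of genes. Analyses used Python 3.11.15, numpy 2.4.6, scipy 1.17.1 and matplotlib 3.10.9.

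The members and gene lists were chosen with earlier results of these data known. Named genes were all with a conservative summit, the 5 others of highest ranked signal, those with no ranked summit in any list, those passing in 1 replicate only and the listed translation genes. Others were named after their values were seen. Alternatives changed the list, the window, the summits counted and the genes included. The control library named in the labels was not analysed here.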

Additional observations from a re-analysis of the deposited data

Results flagged for a closer look

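The peak of rps-12 stood outside the conservative list but in the other thresholded list of both replicates, which the main comparisons do not use, with a signal of 82.99. It was the only ribosomal protein gene found in that list and not in the conservative one. The same peak had 63.2 in replicate 1 and 22.1 in replicate 2, and neither replicate's own thresholded list held it. In the other direction, 3 genes with a conservative summit were absent from that list and 15 were in both.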

How the results depend on the processing

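Of 58 alternatives, 38 kept the value within 1.5 times or the replicate spread and 20 moved it, and none was a test. With 1 replicate's thresholded list, the genes with a summit numbered 8 to 11 (against 18 with the conservative list), large subunit genes 5 to 6 (against 11), small subunit genes 3 to 5 (against 7), snoRNA hosts 1 to 3 (against 4), genes with a divergent promoter 3 to 7 (against 11), and summits within 500 bp of a 5' end 8 of 8 to 11 of 12 (against 16 of 19). At or above the median signal, 11 genes remained counted, 5 of the large subunit. Counting only the nearest 5' end gave 4 small subunit genes, and a 250 bp limit gave 3 of 19 summits. The median highest ranked signal was 44.2 in the other ranked list, 53.6 as a sum and 40.6 without summits near short RNA genes, against 42.2. In single replicates it was 23.4 in replicate 1 and 21.95 in replicate 2, against 18.7 and 16.5 over all protein-coding genes. Both single-replicate medians were counted as moved, but their lists are on a lower scale than the list of both. Chosen after seeing the data, the count of summits with TACGGT was 8 of 19 within 50 bp, 11 within 250 bp, 8 for TACGGTA, and 5 of 12 and 4 of 8 in replicate 2 and replicate 1 alone. The share of ribosomal protein genes stayed above that of all protein-coding genes in each alternative. Causes were not tested. No paired analysis was possible because the labels give 1 group. Depth is unknown, which limits every count.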
